A study of Rattus norvegicus with 6 samples.

Results

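Differentially methylated regions that lay in introns and in no other annotated part of a gene were examined in the CHG context, in which a cytosine is followed by A, C or T and then by G. A region was taken when the annotation placed it in an intron and placed no part of it in a promoter, an exon, an untranslated region, a transcription start or end site or a CpG island. This left 3069 regions of the 9017 annotated CHG regions (34.04%) and of 24862 annotated regions in all sequence contexts. They lay in the introns of 2394 genes, of which 300 carried no gene symbol, and 71 regions lay in introns of more than 1 gene.

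The DNA came from brain microvascular endothelial cells (BMECs), the cells that line the small vessels of the brain and form the blood–brain barrier, which had been sorted from rat hippocampus as CD45-/CD31+ cells. The CUMS group held 3 samples from rats exposed for 8 weeks to chronic unpredictable mild stress. The stress was a rotation of restraint, deprivation of food and water, cage tilt, wet bedding, cold swimming and continuous light. The Ctrl group held 3 samples from rats left undisturbed in their cages. All animals were male Sprague-Dawley rats, according to the study's methods. The comparison asks where stress goes with a changed methylation of endothelial DNA.

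Mammalian DNA methylation sits mostly on cytosines followed by G, where it is copied at each cell division. Methylation in the CHG and CHH contexts, in which the cytosine is not followed directly by G, is laid down by the enzymes Dnmt3a and Dnmt3b, has no such copying mechanism in mammals and, among brain cells, is known mainly from neurons. In most other body cells it is close to absent. In enzymatic conversion sequencing an unmethylated cytosine that escapes deamination is read as methylated, in every context.

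The tables give a single level per region for each group, in which the samples were combined. The tables hold no value per sample, no coverage per region and no p-value, so no difference between CUMS and Ctrl could be set against the spread between rats, and the depth behind a single level is unknown. The study states only a coverage per sample. The regions had been selected by the authors because the groups differed, so the differences are given as descriptions, without a test. The intervals for shares of regions below are 95% Wilson intervals and cover counting error only. The tables hold no expression, so the cell type could not be checked against marker genes.

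The level was higher in CUMS in 2159 regions (hypermethylated) and lower in CUMS in 910 regions (hypomethylated). The hypermethylated share was 70.3% (68.7% to 71.9%), against 68.6% over all annotated CHG regions, and the hypomethylated share was 29.7%, against 31.4% over all of them. In hypermethylated regions the median CHG level was 4.22% in CUMS, with quartiles of 3.42% and 5.30% and a highest level of 29.2%, and the median level in Ctrl was 0.0515%. In hypomethylated regions the median was 4.10% in Ctrl, with quartiles of 3.29% and 5.31% and a highest level of 38.4%, and the median level in CUMS was 0.0364%. Thus the median level was a few percent in one group and far lower in the other, in either direction.

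Averaged over all gene bodies, CHG methylation stood at 0.332% in CUMS against 0.314% in Ctrl. The lower group of a region fell below that mean in 2720 of the 3069 regions (88.6%), in 1908 hypermethylated regions (88.4%) and in 812 hypomethylated regions (89.2%). The regions had been listed for a difference between the groups, and the smallest was 2.00 points. The higher group therefore had to lie above the gene-body mean, and its raised level is not a separate result. The other group lay under that mean in most regions. Selection for a difference can favour a low level there too. The share was not computed over all annotated CHG regions, so it is given as a description. The lower levels formed a pair of clouds on the log scale. In 1593 regions (51.9%) the lower level was under 0.05%, a limit chosen after the levels were seen, and these regions had a median of 15 cytosines, against 19 in the other 1476. At the median lower level of these 1593 regions, 1 methylated read would stand among 5611 reads. The coverage per sample that the study states, taken over the samples of a group and the cytosines of such a region, gives fewer reads than that, so levels this low cannot be plain read shares. How they were estimated is not given in the sources used here.

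**Figure D1:**
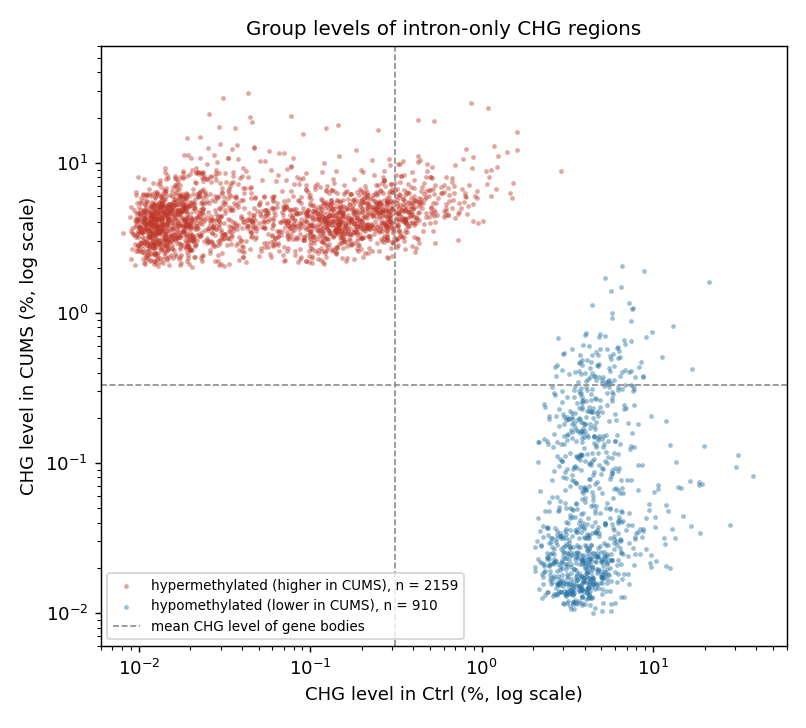
Each point is an intron-only CHG region, with its level in Ctrl (horizontal axis, %, log scale) and in CUMS (vertical axis, %, log scale). The 2159 hypermethylated regions (red) and the 910 hypomethylated regions (blue) form separate groups, and the dashed lines mark the mean CHG level of gene bodies, 0.314% in Ctrl and 0.332% in CUMS.

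The regions were short. Their length ranged from 51 to 1268 bp with a median of 98 bp, and they held 4 to 102 CHG cytosines with a median of 17. They carried 17.6 CHG cytosines per 100 bp, compared with 16.9 in intergenic CHG regions and 18.6 in CHG regions of promoters, exons, untranslated regions and transcription start or end sites. In relation to CpG islands, 2823 regions lay in the open sea and 244 in a shore or shelf, the flanks of an island.

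The differences between the group levels ranged from 2.00 to 38.3 percentage points, with a median of 4.09 points. The region just inside the lower end lay in ENSRNOG00000025672, with 0.138% in CUMS against 2.14% in Ctrl. A difference of at least 5 points was found in 849 regions (27.7%, against 28.0% of all annotated CHG regions), 596 of them hypermethylated and 253 hypomethylated. A difference of at least 10 points was found in 86 regions (2.80%, against 3.11%), 51 hypermethylated and 35 hypomethylated. The methods of the study state this latter limit for a differentially methylated region, and the deposited list reaches below it. The hypermethylated share was 59.3% among the 86 regions, against 63.9% of all annotated CHG regions past the same limit. Of the 6 regions with at least 25 points 2 were hypermethylated and 4 hypomethylated, against a hypermethylated share of 37.5% over all annotated CHG regions of that size. The 86 regions lay in 85 genes, and 60 of them (69.8%) overlapped an annotated repeat, compared with 45.0% of the 2220 regions with less than 5 points.

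The largest hypermethylated difference lay in Nrxn3, which encodes neurexin 3, a presynaptic adhesion protein. The region (chromosome 6, 107937870 to 107938309, mRatBN7.2) spanned 440 bp with 54 CHG cytosines and had 29.2% in CUMS against 0.0434% in Ctrl. It overlapped an annotated L1 element and a repeat of unknown class, RatSatRep2. It was followed by a region of 16 cytosines in Tnk2 (chromosome 11, 68119562 to 68119658), a gene of a nonreceptor tyrosine kinase, with 27.1% and 0.0312%. A region in Sgms1 (chromosome 1, 230006145 to 230006272), which encodes a sphingomyelin synthase, reached 24.9% in CUMS against 0.870% in Ctrl. These 3 genes serve synaptic adhesion, kinase signalling and membrane lipid synthesis, and 1 of the 3 regions lay in a repeat.

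Pde4d, the gene of a cyclic AMP phosphodiesterase, carried a region (chromosome 2, 40679054 to 40679135) with 23.1% in CUMS against 1.09% in Ctrl. The levels in CUMS were 20.3% in Vom2r69, a pheromone receptor gene, and 20.2% in Cdc14a, a gene of a dual-specificity phosphatase, with 0.0772% and 0.0445% in Ctrl. A region of 40 cytosines in Sulf1 (chromosome 5, 6515576 to 6515852), which encodes a heparan sulfate endosulfatase, had 19.1% in CUMS against 0.425% in Ctrl. Between Pde4d and Vom2r69 stood a region of 5 cytosines in a gene without a symbol, ENSRNOG00000062727, with 21.2% in CUMS against 0.0257% in Ctrl. The remaining of the 10 largest in genes with a symbol were Armh3 (18.7% and 0.0460%), Pdzd2 (18.9% and 0.529%) and Sec24d (17.8% and 0.146%), of which Sec24d encodes a component of COPII transport vesicles.

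The largest hypomethylated difference of all lay in a gene without a symbol, ENSRNOG00000012428 (chromosome 19, 43473420 to 43473580), which the annotation describes as an avian musculoaponeurotic fibrosarcoma oncogene homolog. Its 16 cytosines had a level of 0.0819% in CUMS against 38.4% in Ctrl. Among genes with a symbol, Gtdc1 (chromosome 3, 29102394 to 29102447) had 0.112% in CUMS against 31.1% in Ctrl, in a region of only 4 cytosines. Pigf, which acts in the synthesis of the glycosylphosphatidylinositol anchor, carried a pair of neighbouring hypomethylated regions on chromosome 6. The first (7618755 to 7618805) had 0.0934% in CUMS against 30.5% in Ctrl, and the second (7618872 to 7618969) had 0.130% and 19.7%. Both overlapped the same CHH region, so they are not separate observations.

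Ccdc83 (chromosome 1, 144207223 to 144207364) followed with 0.0383% in CUMS against 28.0% in Ctrl. Inpp5b, which encodes an inositol polyphosphate 5-phosphatase, had 1.61% and 21.1%, and it was the only one of the 10 largest hypomethylated regions in genes with a symbol whose lower level was above 1%. The Ctrl level was 19.3% in Rp1, a photoreceptor microtubule gene, 18.9% in Mdga2, a gene of an adhesion protein that binds neuroligins, and 18.6% in Bmpr1b, which encodes a bone morphogenetic protein receptor. Cdk18 (18.6%, over 4 cytosines) and Rgs22 (16.6%), a gene of the regulators of G-protein signalling, completed the 10. In these 5 regions the CUMS level lay between 0.0339% in Mdga2 and 0.0740% in Cdk18. All of the 10 largest hypomethylated regions in genes with a symbol overlapped an annotated repeat, against 46.8% of all members. The larger difference in ENSRNOG00000012428 lay outside repeats. Of the 10 largest hypermethylated regions in genes with a symbol, those in Tnk2, Sgms1, Cdc14a and Pdzd2 overlapped none.

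**Figure D2:**
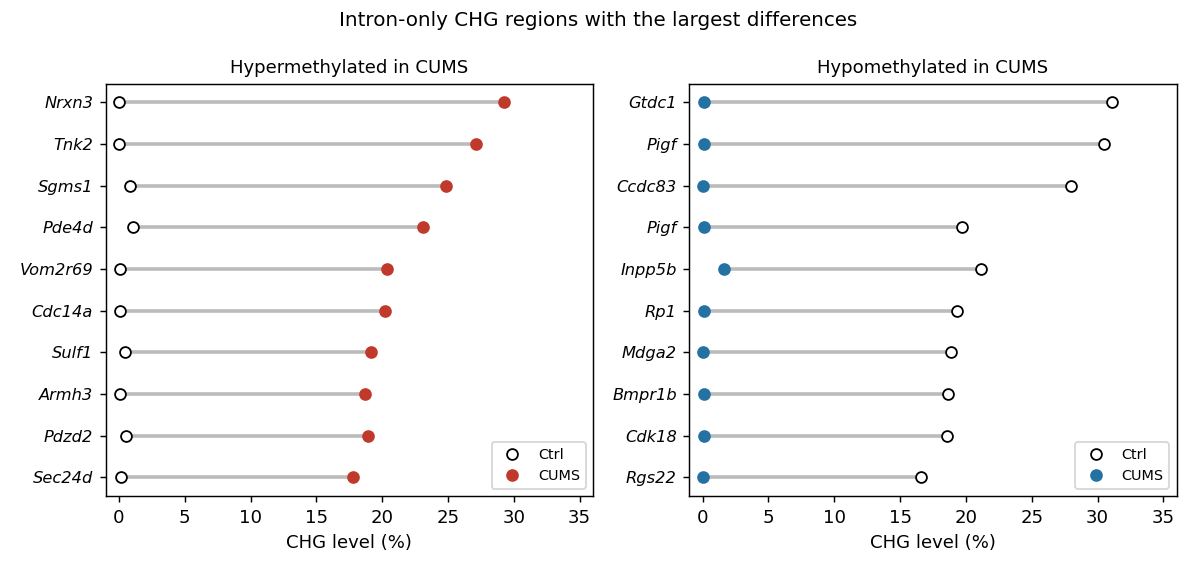
CHG level (%) in Ctrl (open circles) and CUMS (filled circles) of the 10 hypermethylated and the 10 hypomethylated intron-only CHG regions with the largest differences in genes with a symbol. In CUMS the hypermethylated regions run from 17.8% in Sec24d to 29.2% in Nrxn3, and in Ctrl the hypomethylated regions run from 16.6% in Rgs22 to 31.1% in Gtdc1.

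The regions with the most cytosines had smaller differences than the regions named above, which were chosen for the largest differences. Mboat1 held the longest row of CHG cytosines, 102 in 237 bp (chromosome 17, 34405606 to 34405842), with 4.31% in CUMS against 0.283% in Ctrl. Nav1 (94 cytosines, 3.75% and 0.0189%), Pex19 (93 cytosines, 3.16% and 0.155%) and Slco1b2 (79 cytosines, 5.56% and 0.281%) were likewise hypermethylated by a few points. Pex19 is needed for the import of peroxisomal membrane proteins and Slco1b2 encodes an organic anion transporter. A region of 97 cytosines in ENSRNOG00000020272 stood higher, at 12.1% in CUMS against 0.185% in Ctrl.

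On the hypomethylated side the most cytosines were found in Dao, which encodes D-amino acid oxidase (70 cytosines, 0.0975% in CUMS against 4.36% in Ctrl), and in Unc79, a gene of the NALCN sodium leak channel complex (70 cytosines, 0.0346% and 3.58%). Ryr2, the gene of a calcium release channel, held 66 cytosines at 0.0776% and 5.59%, and Egfem1 held 65 at 0.0765% and 3.37%. In ENSRNOG00000069706, 61 cytosines stood at 0.0665% in CUMS against 10.6% in Ctrl. Of these 10 regions rich in cytosines, 2 reached a difference of 10 points.

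The position of the regions relative to genes was compared with direction. Among intergenic CHG regions 31.9% of 4852 were hypomethylated, compared with 29.7% of the 3069 intron-only regions (odds ratio 0.898, Fisher's exact test, two-sided, p = 0.0321). Adjusted by the Benjamini-Hochberg method over the 3 Fisher tests made, this exact p became 0.0963, above the threshold of 0.05. Unadjusted, the difference no longer passed the threshold without chromosome 15, an alternative chosen after the chromosomes had been seen (30.3% and 31.8%, odds ratio 0.931, Fisher's exact p = 0.164), nor among regions outside repeats (odds ratio 0.905, p = 0.193), and its sign turned among regions with at least 10 points (odds ratio 1.26, p = 0.413). Against the 777 CHG regions of promoters, exons, untranslated regions and transcription start or end sites, of which 32.3% were hypomethylated, the test gave an odds ratio of 0.883 (Fisher's exact p = 0.162, adjusted 0.242). These tests treat listed regions as units, and the p-values describe the list, not the variation between rats.

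On each of the 20 autosomes more than 50% of the intron-only regions were hypermethylated. The share ranged from 59.7% on chromosome 11 to 90.2% on chromosome 15, and on 17 of the 20 autosomes its interval held the share of 70.3% over all members. On chromosome 15, 83 of 92 regions were hypermethylated (82.4% to 94.8%), whereas of the intergenic CHG regions of that chromosome 109 of 171 were hypermethylated (63.7%, 56.3% to 70.6%). Of the CHG regions in promoters, exons, untranslated regions and transcription start or end sites of chromosome 15, 16 of 19 were hypermethylated (84.2%, 62.4% to 94.5%). Without chromosome 15 the hypermethylated share of the members was 69.7%. Chromosome X held 139 hypermethylated and 71 hypomethylated regions (66.2%), with a median level of the higher group of 4.67%, the highest of the chromosomes numbered 1 to 20 and X. A further 3 regions lay on chromosome Y and 7 on unplaced scaffolds.

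**Figure D3:**
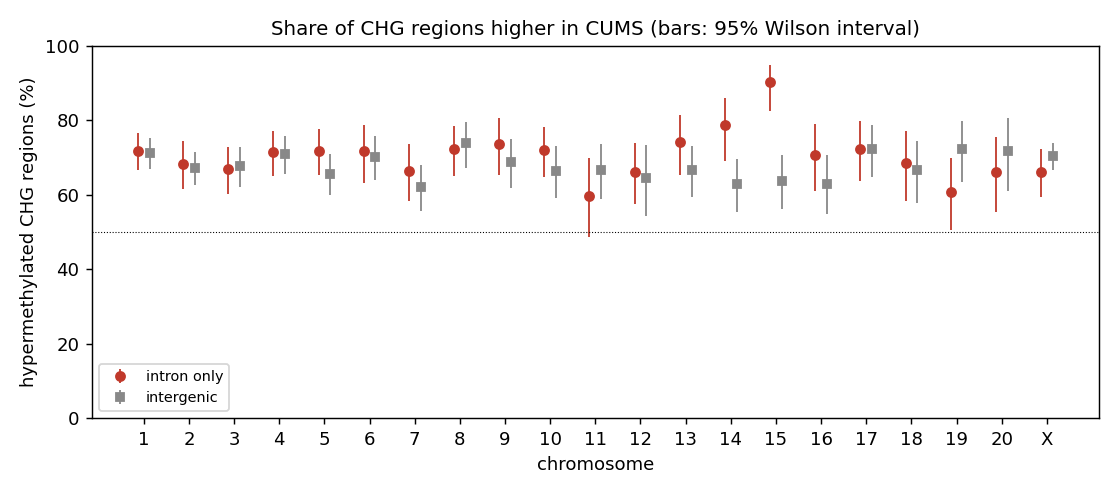
Share of CHG regions that were hypermethylated in CUMS (%) on each chromosome, for intron-only regions (red circles) and intergenic regions (grey squares), with 95% Wilson intervals as bars. The intron-only share lies above 50% on every chromosome drawn and stands highest on chromosome 15, at 90.2%, where the intergenic share is 63.7%.

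Annotated repeats are mostly copies of mobile elements that make up much of a mammalian intron. Methylation in the CG context is known to keep many of them silent. A repeat was annotated in 1435 intron-only regions (46.8%), compared with 67.8% of intergenic CHG regions and 18.5% of those in promoters, exons, untranslated regions and transcription start or end sites. The L1 elements, long interspersed elements that copy themselves through RNA, were the most frequent, in 500 regions (16.3%, against 37.0% of intergenic regions). The repeat share was 46.8% in hypermethylated and 46.7% in hypomethylated regions (odds ratio 1.00, Fisher's exact test, two-sided, p = 1, also after adjustment).

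The intervals of the hypermethylated share overlapped between repeat classes. The share was 68.2% in L1 elements (64.0% to 72.1%), 70.8% in the 185 regions of ERVK endogenous retroviruses (63.9% to 76.9%) and 73.2% in ERVL-MaLR elements, a class of long terminal repeats (64.7% to 80.2%). Among the short interspersed elements it was 70.3% in 192 Alu-type, 71.6% in 141 B2 and 72.5% in 167 B4 regions. In the 1634 regions without a repeat it was 70.3%, within the interval of each of these classes.

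Intron-only regions that shared at least 1 bp with a CHH region of the full list gave a second readout. Both came from the same libraries, and the rule that chose the regions did not use the CHH level. A CHH region overlapped 2197 intron-only regions (71.6%), and in 2191 of them (71.4% of all members, 69.8% to 73.0%) it changed in the same direction. The same share was 68.0% of all annotated CHG regions, 64.7% of intergenic ones (63.4% to 66.1%) and 75.8% of those in promoters, exons, untranslated regions and transcription start or end sites (72.7% to 78.7%). The intron-only share thus lay between these classes, and the differences were not tested. The median length of the CHG regions had the same order, at 93 bp in intergenic, 98 bp in intron-only and 108 bp in the last class. A longer region has more room for an overlap, and length was not accounted for. The share with a CHH region of the same direction was 73.8% of hypermethylated regions and 65.6% of hypomethylated regions. It was 65.7% of regions under 5 points, and 86.3% of regions with at least 5 points. The share was thus higher among the larger CHG differences, and the difference between these shares was not tested. Both contexts share the rats, the libraries and the conversion reaction, and the part of conversion in these levels was not tested.

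In the overlapping regions of the same direction the group with the higher level had a median of 4.50% in CHG and of 3.68% in CHH. The CHG level was a median of 1.22 times the CHH level, with quartiles of 1.04 and 1.44, and in regions with at least 10 points it was 1.49 times as high. Those regions were chosen by the CHG difference, and the CHG level enters the ratio, so the higher ratio is not a separate result. The levels did not cover the same bases, since the overlapping CHH regions had a median length of 226 bp and a median of 46.1% of a CHH region lay in the CHG region. In Nrxn3 the CHG region of 440 bp lay in a CHH region of 470 bp, and the CUMS levels were close, at 29.2% in CHG and 27.2% in CHH. In Tnk2 the 97 bp of the CHG region lay in a CHH region of 424 bp, and the CUMS levels were 27.1% in CHG and 10.8% in CHH. In Cdc14a the order was turned, with 20.2% over 86 bp in CHG and 27.4% over 326 bp in CHH. No CHH region overlapped the regions of Sulf1 and Rp1.

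**Figure D4:**
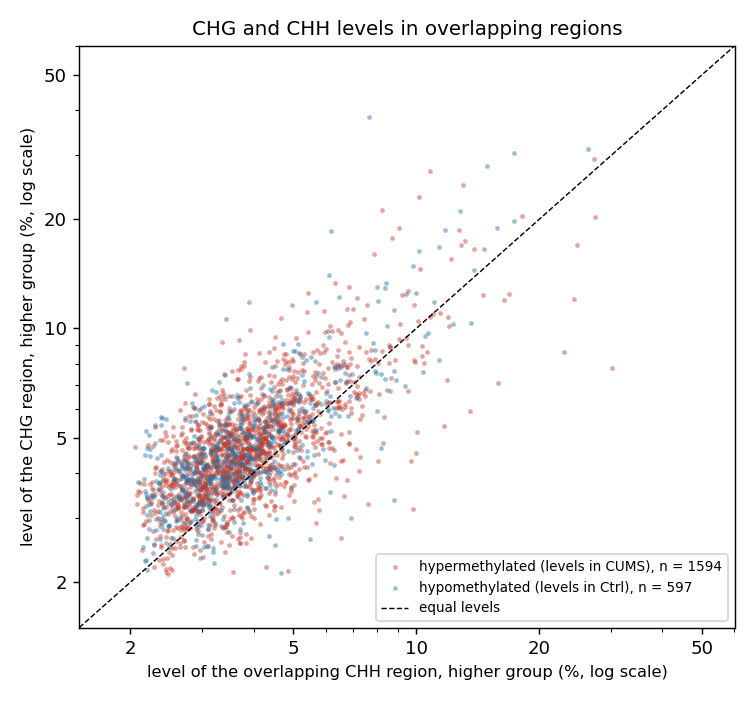
Level of the CHG region (vertical axis, %, log scale) against the level of the overlapping CHH region (horizontal axis, %, log scale) in the group with the higher level, for 1594 hypermethylated and 597 hypomethylated intron-only regions. Most points lie above the dashed line of equal levels, with a median ratio of 1.22.

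The directions were opposite in 6 regions, which lay in Pcsk5, Rap1gap2, Acacb, Lexm and, as a pair, in Tbck. They are named because they are few, after their values were seen. In Pcsk5, which encodes a proprotein convertase, the CHG level was 0.0183% in CUMS against 2.24% in Ctrl, and the CHH level was 32.5% and 0.712%. In Acacb, a gene of acetyl-CoA carboxylase, the CHG level was 6.23% in CUMS against 0.0244% in Ctrl, and the CHH level was 0.570% and 10.5%. Each of these regions held 6 or 7 CHG cytosines.

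A CG region overlapped 2 intron-only CHG regions, both hypermethylated, and in both the CG level went the other way. In Dad1, a gene of the oligosaccharyltransferase complex (chromosome 15, 27692141 to 27692241), the CHG level was 3.74% in CUMS against 0.284% in Ctrl, and the CG level was 10.4% and 29.2%. In Mei4, a gene of meiotic recombination (chromosome 8, 82829034 to 82829122), the CHG level was 3.65% and 0.0254%, and the CG level was 72.4% and 89.0%. At the level of genes, 289 genes had both an intron-only CHG region and an intron-only CG region, which is 12.1% of the former and 37.0% of the 781 latter genes. With intron-only CHH regions, 951 genes were shared, 39.7% of the CHG genes and 38.3% of the 2483 CHH genes of the annotation table. The full list held 145823 CHH regions, and the annotation held 24862 regions of all contexts. Most CHH regions were thus not counted in these shares. Of all protein-coding genes with a symbol in RefSeq, 9.68% carried an intron-only CHG region. A gene with long introns has more room for regions of any context. Gene length was not accounted for, so these shares do not show a link between contexts.

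Of the 2394 genes, 1877 carried a single region and 517 carried at least 2. Of the 517 genes, 237 had only hypermethylated regions, 38 had only hypomethylated regions and 242 had both. Among the 54 genes with at least 4 regions, 46 had both directions. Mixed directions within a gene were thus about as frequent as hypermethylated regions alone. A gene with more regions is more likely to hold both directions, and no expected count was computed for these genes. Between neighbouring regions on a chromosome, which lay a median of 364 kb apart, the direction was the same in 32 of 35 pairs under 1 kb (91.4%, 77.6% to 97.0%). It was the same in 62 of 104 pairs between 1 and 10 kb (59.6%) and in 438 of the 751 pairs that shared a gene (58.3%, 54.8% to 61.8%). If directions were unrelated, the shares of the members would give 58.3%.

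The most regions, 9, were found in Frmpd4 on chromosome X, which encodes a scaffold protein of the postsynaptic density. In Frmpd4 5 regions were hypermethylated, with CUMS levels of 2.46% to 16.6%, and 4 were hypomethylated, with Ctrl levels of 5.11% to 7.74%. ENSRNOG00000029663, described as an interleukin 1 receptor accessory protein-like gene and also on chromosome X, had 6 hypermethylated and 2 hypomethylated regions. Tenm3, a gene of the teneurin adhesion proteins, had 5 hypermethylated regions between 2.55% and 6.48% in CUMS and 2 hypomethylated regions with 4.02% and 4.51% in Ctrl. In each of these 3 genes the directions were mixed.

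There were 6 regions each in Cdh4, Cntnap2, Pde4d, Rbms3, AABR07044900.1 (described as catenin alpha 3) and AABR07054000.1 (described as mono-ADP ribosylhydrolase 2). Cdh4, which encodes a classical cadherin, held 3 regions of either direction. Cntnap2, a neurexin family gene, and Pde4d each held 5 hypermethylated regions and 1 hypomethylated region. In Pde4d the region at 23.1% stood far above the other 4 hypermethylated regions, whose CUMS levels were 3.66% to 5.09%.

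The genes that the study measured singly were looked up next. Cacna1c, which encodes the pore subunit of the L-type calcium channel Cav1.2, carried 3 intron-only CHG regions on chromosome 4, and all were hypermethylated. The first (151826460 to 151826570, 23 cytosines) had 2.88% in CUMS against 0.129% in Ctrl, and the second (152200464 to 152200556, 17 cytosines) had 2.92% and 0.0382%. The third (152283130 to 152283196, 9 cytosines) had 3.32% and 0.0172%. These differences were small within the list, at rank 2734, 2631 and 2276 of 3069 by size.

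Tjp1, which encodes the tight junction scaffold ZO-1, carried 4 hypermethylated regions with CUMS levels of 3.67%, 4.06%, 4.90% and 5.58% and 1 hypomethylated region with 2.52% in Ctrl. No intron-only CHG region of the table lay in Nrcam, Vcam1, Spp1, Mmp9, Cldn5 or Ocln, a number of which are short genes. A gene with little intron has less room for such a region, and gene length was not accounted for.

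Regions were then counted in 12 lists of genes, which held 282 regions together, 202 hypermethylated and 80 hypomethylated, and 11 of the lists are described here. The counts of each list are read beside the 70.3% and the median difference of 4.09 points over all members. Of the 20971 protein-coding genes with a symbol in RefSeq, 2031 (9.68%) carried an intron-only CHG region, the share beside which the genes of each list can be read. Genes were matched to the lists by symbol, so a gene given without its symbol was not counted. The lists differ in the length of their genes and are described without a test.

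The voltage-gated calcium channels, which admit calcium on depolarization, had 16 regions in 9 of 26 genes, 12 of them hypermethylated, with a median difference of 3.52 points. The largest differences of the list went the other way. Cacna1b, the pore subunit of the N-type channel (chromosome 3, 7396330 to 7396418), had 0.0961% in CUMS against 8.63% in Ctrl, and Cacna1f on chromosome X had 0.0248% and 6.67%. Cacng4, an auxiliary subunit, had the largest hypermethylated difference of the list, with 6.39% in CUMS against 0.306% in Ctrl.

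Calcium stores, pumps and exchangers had 13 regions in 9 of 22 genes, 11 hypermethylated and 2 hypomethylated, with a median of 4.57 points. Atp2b4, a calcium pump of the plasma membrane, had 8.53% in CUMS against 0.0215% in Ctrl. Itpr2, an inositol trisphosphate receptor that releases calcium from the endoplasmic reticulum, had 7.82% and 0.0144% in one region and 4.86% and 0.284% in another. The hypomethylated regions of the list lay in Ryr2 and in Atp2b2.

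Genes of focal adhesion and basement membrane, which anchor endothelial cells to the vessel wall, had 25 regions in 20 of 50 genes, 20 hypermethylated (80.0%) and 5 hypomethylated, with a median of 4.62 points. Lama3, a laminin chain (chromosome 18, 3708215 to 3708286), had 14.6% in CUMS against 0.0192% in Ctrl. Itga11, a collagen-binding integrin, had a hypermethylated region with 13.2% and 0.0374% and a hypomethylated one with 0.0120% and 3.70%. The focal adhesion kinase gene Ptk2 had 4.63% in CUMS against 0.0110% in Ctrl.

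Genes of endothelial junctions, which seal the barrier between neighbouring cells, had 10 regions in 6 of 22 genes, 9 hypermethylated and 1 hypomethylated, with 5 of the 10 in Tjp1. Marveld2, which encodes tricellulin, had 5.63% in CUMS against 0.0403% in Ctrl, the only region of the list with a difference of at least 5 points. Single hypermethylated regions lay in Ctnna1, Ctnnb1 and Pard3, among others, with CUMS levels of 4.29%, 4.25% and 3.91% in these 3 genes.

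Axon and vascular guidance genes had 30 regions in 19 of 72 genes, 20 hypermethylated and 10 hypomethylated. Robo1, a receptor of the Slit ligands, held 2 regions of either direction on chromosome 11, among them 14.9% in CUMS against 0.0226% in Ctrl (11376897 to 11377093) and 0.206% against 9.71% (11337616 to 11337850). These were the largest differences of the list in both directions, and they lay in the same gene.

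The neural adhesion list had the most regions, 52 in 21 of 41 genes, 33 hypermethylated (63.5%, 49.9% to 75.2%) and 19 hypomethylated, and 33 of the 52 lay in a repeat. Beside Nrxn3, the next largest difference of the list was in Cntnap5c, with 7.96% in CUMS against 0.0388% in Ctrl. All 5 regions of Cntnap5a were hypermethylated, and both regions of Ntm, of the IgLON family, were hypomethylated. Cadherins and catenins had 30 regions in 12 of 43 genes, 18 hypermethylated and 12 hypomethylated. These counts leave out AABR07044900.1, described as catenin alpha 3, which carried 5 hypermethylated regions and 1 hypomethylated region. Ctnnd2, a neural catenin, had a region with 0.0444% in CUMS against 14.9% in Ctrl, and Pcdh15, a protocadherin of sensory hair cells, had one with 12.4% and 0.815%. All 4 regions of Cdh12 were hypermethylated, whereas Cdh13, which encodes T-cadherin, had 2 of either direction.

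Glutamate and GABA receptors had 21 regions in 13 of 47 genes, 15 hypermethylated and 6 hypomethylated. The metabotropic receptor gene Grm5 had the largest difference, with 0.0156% in CUMS against 7.23% in Ctrl, and held 2 hypermethylated regions as well, with 2.95% and 6.16% in CUMS. Potassium channels had 23 regions in 16 of 96 genes, 18 hypermethylated and 5 hypomethylated, with the highest median of the 12 lists, 4.85 points. Kcnab1 had 6.89% in CUMS against 0.0451% in Ctrl, and Kcnc1 had 6.86% and 0.113%. Kcnma1, the gene of the large-conductance calcium-activated channel on chromosome 15, held 4 hypermethylated regions and 1 hypomethylated region.

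Phosphodiesterases and adenylate cyclases, which break down and make cyclic nucleotides, had 18 regions in 12 of 32 genes, 13 hypermethylated and 5 hypomethylated. After Pde4d, the largest difference was in Pde2a, with 0.0466% in CUMS against 7.22% in Ctrl. Enzymes of DNA methylation and of one-carbon metabolism, which supplies the methyl groups and recycles homocysteine, had 3 regions in 3 of 36 genes, and all were hypermethylated. They lay in Dnmt3a, which methylates DNA de novo (3.77% in CUMS against 0.193% in Ctrl), in Tet3, which oxidises methylated cytosine (3.33% and 0.172%), and in Mthfd1, an enzyme of folate metabolism (2.51% and 0.0126%).

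**Figure D5:**
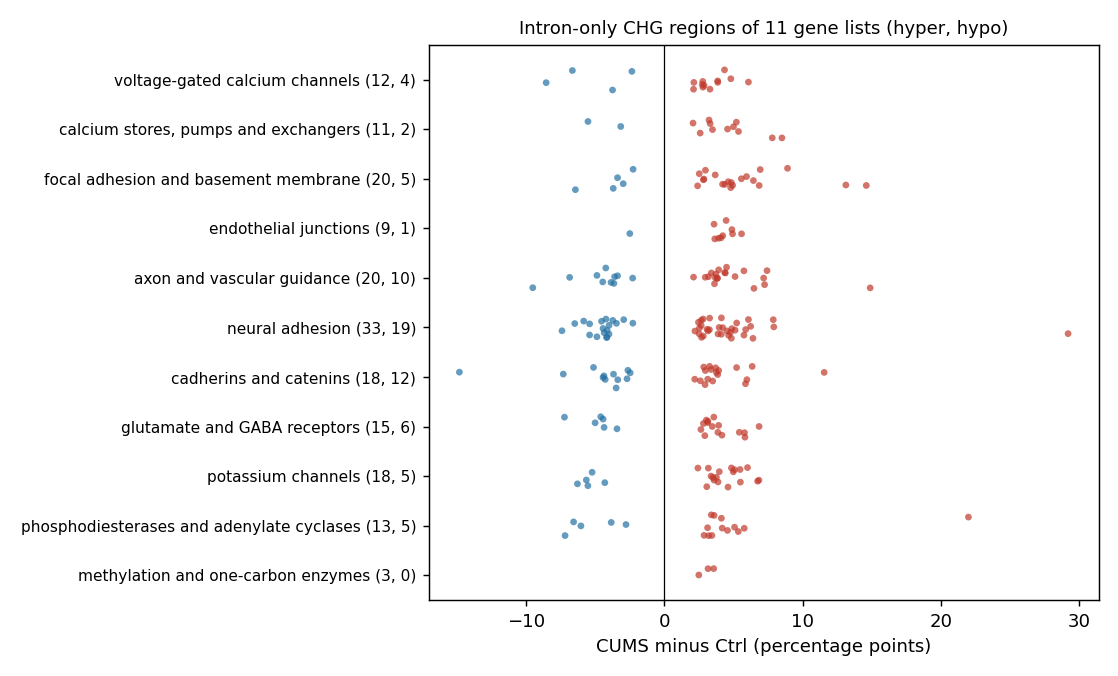
Difference between the group levels (CUMS minus Ctrl, percentage points) of each intron-only CHG region in 11 gene lists, with hypermethylated regions in red, hypomethylated regions in blue and their numbers in brackets. Most points lie within 10 points of 0 on either side, and the farthest are Nrxn3 (29.2% in CUMS), Pde4d (23.1% in CUMS) and, on the hypomethylated side, Ctnnd2 (14.9% in Ctrl).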

How the data were processed

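DNA of sorted rat BMECs (3 CUMS and 3 Ctrl samples, grouped by their titles) had been converted enzymatically with TET2 and APOBEC3A and sequenced. Per the study's methods and the submitters' processing notes, reads were checked with FastQC 0.11.3, trimmed with fastp 0.20.0 and aligned with Bismark 0.16.3 to mRatBN7.2, and regions were called with DSS. Methylation levels were deposited by the authors as a fraction from 0 to 1, with 1 value per group and region, and are given here in percent. The deposited region score and difference columns hold the authors' own comparison and were not used. The study's methods state a minimum difference of 10 points. The deposited list reaches down to 2.00 points and was taken as deposited, and the limit of 10 points was tried as an alternative.

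Annotation rows were joined by position and context to 1 row per region. Overlaps with CHH regions (at least 1 bp, the CHH region with the longest overlap where there were several) used the full list of 160692 regions. Directions and repeat shares were compared by Fisher's exact test, two-sided, with Benjamini-Hochberg adjustment over 3 tests, and shares have Wilson intervals (Python 3.11.15, pandas 2.3.3, scipy 1.17.1). The scripts were tested on simulated data. Identifiers without a gene symbol are given as in the table. A RefSeq table (GRCr8) was consulted only for the number of genes per list and the share of protein-coding genes with a region.

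Named were the genes that the study measured, the 10 hypermethylated and 10 hypomethylated regions in genes with a symbol and the largest differences, the 5 and 5 with the most cytosines, the 5 genes with the most regions, and the 2 largest differences of each list. Further genes were chosen after their values were seen. The members and lists were chosen with earlier results of these data known. Alternatives concerned the size of the difference, cytosines, length, repeats, chromosomes, joining of neighbours, shores and shelves, and the overlap. No table holds a value per sample, so the depth behind a level and the error between samples could not be given. Some genes and 1 gene list covered by this rule are not reported here.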

Additional observations from a re-analysis of the deposited data

How the results depend on the processing

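The 12 results were recomputed under up to 10 alternatives each, which gave 86 values, of which 49 left the direction and the side of the threshold as they were, or moved a count by less than 1.5 times or a share within its interval. With at least 5 points, 596 hypermethylated and 253 hypomethylated regions remained, the median Ctrl level of the latter was 6.37%, the odds ratio against intergenic regions was 0.948 (exact p = 0.601), that against promoters and exons turned to 1.15 and that of the repeat share to 0.784, the CHH share was 86.3%, and the gene lists held 61 and 25 regions. With at least 10 points, the limit in the study's methods, there were 51 and 35 regions (59.3% hypermethylated) with median higher levels of 12.4% and 13.4%, the same odds ratios were 1.26, 1.72 and 0.875, and the CHH share was 86.0%. No odds ratio that turned its sign passed the threshold on the other side. With at least the median number of cytosines the counts were 1147 and 446 (72.0%), the odds ratio against intergenic regions 0.961 (exact p = 0.587) and the CHH share 76.9%. With at least the median length they were 1177 and 440 (72.8%), 0.911 (exact p = 0.208) and 80.5%. Outside repeats they were 1149 and 485, 0.905 (exact p = 0.193) and 73.5%, with 115 and 42 regions in the lists. Joining regions within 1 kb turned the odds ratio of the repeat share to 0.994. Without chromosome 15, chosen after seeing the data, the odds ratio against intergenic regions was 0.931 (exact p = 0.164). Counting a CHH overlap only where it covered 50% of the CHG region gave 68.9%. The p-values of this paragraph are unadjusted. The cause of these shifts was not tested, other than that the limits keep fewer regions. No paired analysis was possible because each group has only 1 deposited level per region, and leaving out a replicate and the permutation test were not run for the same reason.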
